A study of Mus musculus with 12 samples.

Results

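The 10 genes described here belong to the inflammasome and pyroptosis route of the innate immune system. They are the sensors Nlrp3, Nlrc4, Nlrp1b, Naip2, Naip5 and Naip6, the adaptor Pycard, the inflammatory caspases Casp1 and Casp4, and the pore-forming protein Gsdmd. They were taken by name, as the rows of the count table whose Ensembl identifiers map to these symbols, by a rule that uses no measured value, though earlier results of these data were known. All 10 were found among the 55416 identifiers of the table, and all 10 passed the filter on low counts that left 26420 genes for testing.

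RNA was sequenced from cultures of SIM-A9, a microglial cell line of C57BL/6 mouse origin, either wild-type (WT) or of the line H14, labelled MOK-knockout (KO), MOK being a kinase. Cells of both lines were kept in medium or exposed for 5 h to 1 µg/mL of lipopolysaccharide (LPS), the outer membrane component of Gram-negative bacteria and ligand of Toll-like receptor 4. The 4 groups (WT in medium, WT under LPS, KO in medium, KO under LPS) had 3 libraries each, numbered as biological replicates 1 to 3. Whether replicates came from separately grown cultures is not stated, and p-values thus cover only the spread between these libraries, which may be technical. Only 1 KO line was sequenced, and effects of MOK loss cannot be told apart from effects particular to that line. No group received a second inflammasome signal such as ATP, nigericin or cytosolic flagellin, and the libraries measure RNA, not caspase cleavage or pore formation.

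Inflammasomes are cytosolic protein platforms that activate caspase-1. NLRP3 responds to potassium efflux and membrane damage, and its gene is known in macrophages as a target of the priming signal that Toll-like receptors give through NF-kB. NLRC4 is activated through NAIP proteins, which bind bacterial flagellin (NAIP5 and NAIP6) or the needle and rod proteins of type III secretion systems (NAIP1 and NAIP2). NLRP1B senses proteolytic attack such as that of anthrax lethal factor. ASC, the product of Pycard, links sensors to caspase-1, which matures IL-1β and IL-18 and cleaves gasdermin D. Caspase-11, the product of mouse Casp4, binds LPS in the cytosol and cleaves gasdermin D without an upstream sensor. The released N-terminal part of gasdermin D forms the pores of pyroptosis.

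Total counts ranged from 39.7 M to 72.9 M per library, and no library was a copy of another (chi-square per degree of freedom of 19.1 to 155 between replicates, highest for KO LPS replicates 1 and 2). Processed pseudogenes held 12.8% to 14.3% of the counts in KO medium libraries, 6.58% to 13% in WT medium and 6.28% to 7.35% in the 6 LPS libraries, and this share thus moved with LPS, above all in the KO line. Mok, the labelled target, was lower in KO than in WT under LPS (-0.72 ± 0.19 log2, SE, edgeR adjusted p = 0.0177) and missed the threshold in medium (-0.58 ± 0.19, adjusted p = 0.0501), and was detected in all 12 libraries at 1.32 to 3.52 CPM. Its LPS call did not hold when WT LPS replicate 1 (0.0785) or 3 (0.0515) or KO LPS replicate 3 (0.0753) was left out. The 13 microglia and macrophage markers summed to 758 to 1704 CPM per library, with Csf1r, Cd68, Ptprc and Spi1 among them, while P2ry12 and Sall1, which define microglia in the brain, lay below 1 CPM in group means. Itgam, the CD11b integrin chain, fell to 3.67 CPM in KO against 20.9 CPM in WT in medium. Neutrophil markers summed to under 1 CPM, and the highest sum of any other marker list was 23.3 CPM (T cells, nearly all Cd3e).

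Levels are given as CPM, counts per M counts of the library scaled by TMM, or, for comparisons between genes, as CPM per kb of annotated exons. In WT cells in medium, Gsdmd had the highest level per length of the 10 genes (23.0 ± 1.04 CPM per kb, SD, n = 3) and Pycard the lowest (0.345 ± 0.0383). Between them lay Casp1 (9.25 ± 1.37), Naip2 (7.76 ± 0.54), Nlrp3 (7.34 ± 0.70), Naip5 (5.87 ± 0.31), Naip6 (5.64 ± 0.12), Nlrc4 (3.00 ± 0.17), Casp4 (1.12 ± 0.09) and Nlrp1b (0.461 ± 0.0764) in falling order of CPM per kb. The neighbours Naip2 and Nlrp3, and Naip5 and Naip6, differed by less than the larger SD of the pair, and the other neighbours by more. Under LPS the order changed at the top. Nlrp3 led with 91.1 ± 9.0 CPM per kb in WT and 92.4 ± 9.59 in KO, ahead of Gsdmd (30.3 ± 0.32 and 23.0 ± 2.43) and Casp1 (19.2 ± 2.57 and 17.2 ± 0.82). Casp4 moved from the eighth place to the fourth in WT (10.9 ± 0.63) and from the seventh to the fourth in KO (7.98 ± 0.73). Nlrp3 under LPS stood at percentile 97.0 of the 16173 protein-coding genes tested in WT, and Pycard at percentile 29.0 in WT medium.

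**Figure D1:**
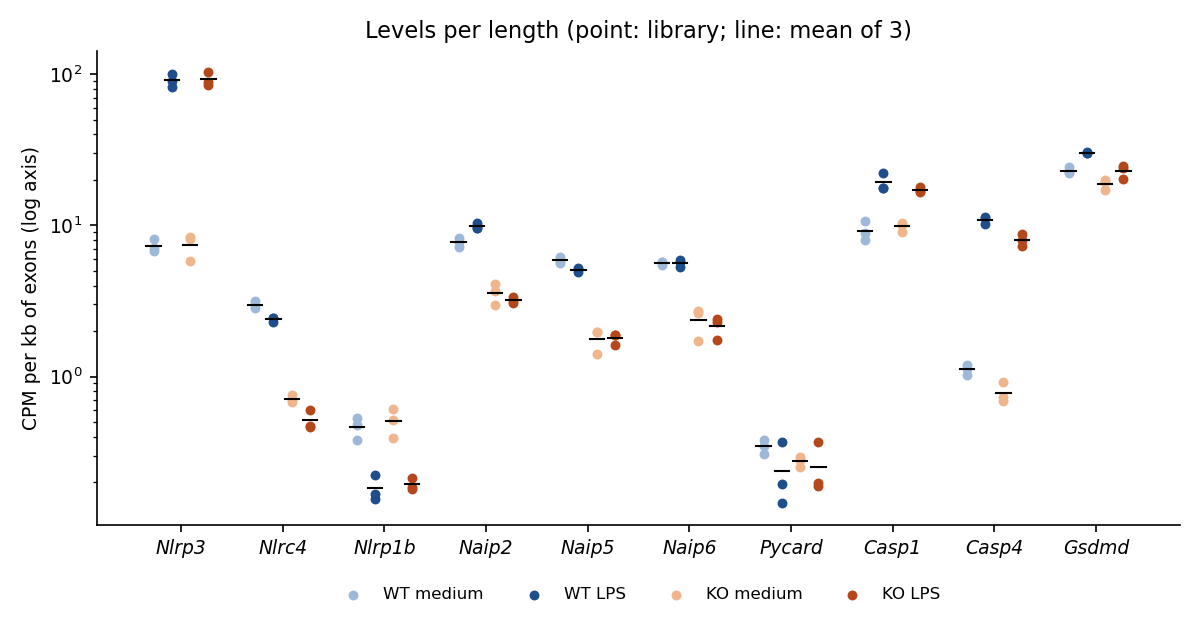
Level per length of the 10 genes, as CPM per kb of annotated exons on a log axis, with a point for each library and a line at the mean of 3. Nlrp3 rises from about the middle of the set in medium to the top under LPS in both lines, and Nlrc4, Naip2, Naip5 and Naip6 lie lower in both KO groups.

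The low place of Pycard rests in part on its annotated length. Its exons span 3800 bases when all transcript models are joined, and a transcript of 493 bases would give 2.66 ± 0.30 CPM per kb in WT medium. Pycard (ENSMUSG00000030793) had 32 to 85 counts per library. Exons of Gm45205 on the opposite strand cover 12.8% of its exonic bases, and the strand setting of the counting is not given in the sources used here, so reads of these genes may not be separated.

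**Figure D2:**
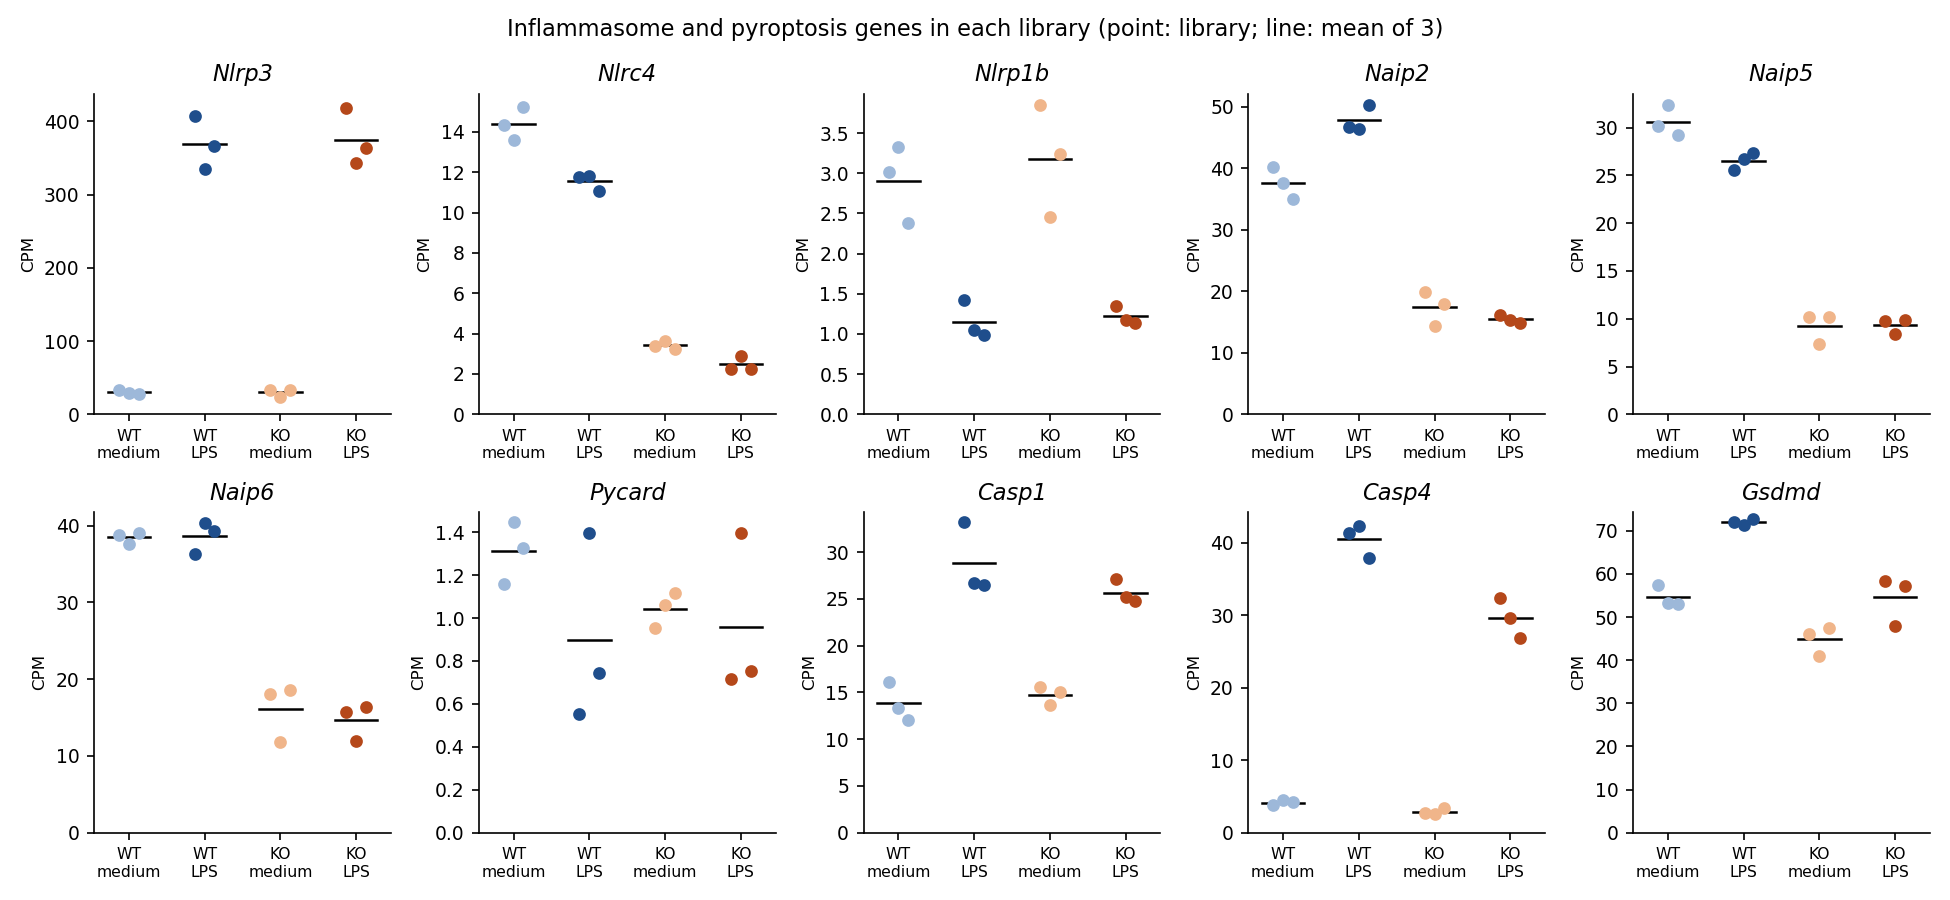
CPM of the 10 genes in each of the 12 libraries, with a point for each library and a line at the mean of the 3 libraries of a group, on linear axes that start at 0. Nlrp3 and Casp4 separate by treatment, and Nlrc4, Naip2, Naip5 and Naip6 separate by line.

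The response to LPS was the first question the design allows. In WT cells LPS raised Nlrp3 12.4-fold and Casp4 9.77-fold, raised Casp1 2.08-fold, and raised Gsdmd and Naip2 by 1.32-fold and 1.27-fold. Nlrp1b fell 2.52-fold, and Nlrc4, Naip5, Naip6 and Pycard did not pass the test. In KO cells Nlrp3, Casp4, Casp1 and Gsdmd rose and Nlrp1b and Nlrc4 fell. Of the 10 genes, 5 were thus called higher and 1 lower in WT, where 16.3% of all 26420 genes were called in each direction (32.6% in either). In KO 4 were called higher and 2 lower, against 25.3% and 26.8% of all genes (52% in either), so that the 6 of 10 called there stood near the share of all genes. The median log2 fold change of the 10 genes was 0.18 in WT and -0.05 in KO, beside medians of -0.07 and -0.03 over all genes. All calls are from edgeR's quasi-likelihood test at a Benjamini-Hochberg adjusted p under 0.05 over all genes.

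The split of calls depended on the scaling. With library size alone, 2104 genes were called higher and 9985 lower in WT (4303 and 4297 with TMM), and 3 of the 10 genes in each direction. In KO 4182 were called higher and 10422 lower (6679 and 7070 with TMM), with 3 of the 10 genes higher and 4 lower. With the processed pseudogene share in the model, the KO comparison called 1342 genes higher and 659 lower, and of the 10 genes Nlrp3, Casp4 and Casp1 were called, all higher.

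Nlrp3 (ENSMUSG00000032691), the sensor that is primed before it can be activated, was at 33.0, 28.7 and 27.7 CPM in the WT medium libraries and at 408, 335 and 366 CPM under LPS. In KO cells it was at 33.8, 23.7 and 33.0 CPM in medium and at 418, 343 and 363 CPM under LPS. Every LPS library was above every medium library in both lines, and the lines overlapped at each treatment. The log2 fold change was 3.63 ± 0.15 (SE) in WT (edgeR adjusted p = 2.53e-08) and 3.64 ± 0.15 in KO (adjusted p = 2.34e-08). Both calls held under all alternatives listed in the closing section, the fit with that share as a covariate among them.

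Casp4 (ENSMUSG00000033538), which encodes the cytosolic LPS receptor caspase-11, started from a low level. WT medium libraries had 3.79, 4.45 and 4.19 CPM, and WT LPS libraries 41.4, 42.3 and 37.9 CPM. In KO the values were 2.7, 2.54 and 3.41 CPM in medium and 32.3, 29.6 and 26.9 CPM under LPS. The groups did not overlap between treatments in either line. LPS changed Casp4 by 3.29 ± 0.13 on the log2 scale in WT (edgeR adjusted p = 1.39e-08) and by 3.36 ± 0.13 in KO (adjusted p = 1.12e-08).

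Casp1 (ENSMUSG00000025888), the protease of the canonical inflammasomes, was present before LPS and rose less. It was at 16.1, 13.4 and 12.1 CPM in WT medium and at 33.2, 26.7 and 26.5 CPM in WT under LPS. KO libraries had 15.6, 13.6 and 15.0 CPM in medium and 27.1, 25.2 and 24.7 CPM under LPS. No medium library reached the lowest LPS library of its line. The log2 fold change was 1.06 ± 0.12 in WT (edgeR adjusted p = 6.19e-05) and 0.80 ± 0.12 in KO (adjusted p = 0.000511).

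Gsdmd (ENSMUSG00000022575), the substrate of both caspases, showed the smallest of the called rises in KO. Its WT values were 57.5, 53.3 and 53.1 CPM in medium and 72.1, 71.3 and 72.8 CPM under LPS. KO medium libraries were at 46.0, 41.0 and 47.5 CPM, and KO LPS libraries at 58.5, 47.9 and 57.3 CPM. The treatments did not overlap in either line, though KO LPS replicate 2 lay within 1 CPM of the highest KO medium library. The log2 fold change was 0.40 ± 0.09 in WT (edgeR adjusted p = 0.0048) and 0.28 ± 0.09 in KO (adjusted p = 0.0177). The KO call was lost without KO LPS replicate 1 (adjusted p = 0.0698) or 3 (0.0622) and without KO medium replicate 1 (0.0537) or 2 (0.126). It was also lost with no filter (0.16, adjusted p = 0.225), only the groups compared (0.0549), protein-coding genes only (0.13, adjusted p = 0.193) and the processed pseudogene share in the model (0.38). Scaled by library size alone, where the median of all genes fell from -0.07 to -0.40 in WT and from -0.03 to -0.29 in KO, Gsdmd stood at 0.06 and 0.02 and neither call held.

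The Nlrp3, Casp4 and Casp1 promoters are shown because these 3 genes rose most, and because letters of the NF-kB consensus differ among them. The sequences are RefSeq's, on GRCm38.p6, from 250 bases before to 50 bases after an annotated start. Nlrp3 is at chr11:59541319-59541618 (plus strand, the upstream one of 2 annotated starts), Casp4 at chr9:5308599-5308898 (plus strand) and Casp1 at chr9:5298267-5298566 (plus strand), so that the 2 caspase genes are neighbours on chromosome 9. Capitals mark matches to the NF-kB consensus in Nlrp3 and Casp4, and to the letters GAGGAA, on either strand, in Casp1.
Nlrp3: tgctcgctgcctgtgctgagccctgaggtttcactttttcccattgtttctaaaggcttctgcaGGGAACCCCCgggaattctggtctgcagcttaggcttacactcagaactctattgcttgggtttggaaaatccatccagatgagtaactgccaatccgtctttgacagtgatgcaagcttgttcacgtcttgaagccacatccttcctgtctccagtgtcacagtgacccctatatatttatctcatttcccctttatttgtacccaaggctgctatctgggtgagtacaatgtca
Casp4: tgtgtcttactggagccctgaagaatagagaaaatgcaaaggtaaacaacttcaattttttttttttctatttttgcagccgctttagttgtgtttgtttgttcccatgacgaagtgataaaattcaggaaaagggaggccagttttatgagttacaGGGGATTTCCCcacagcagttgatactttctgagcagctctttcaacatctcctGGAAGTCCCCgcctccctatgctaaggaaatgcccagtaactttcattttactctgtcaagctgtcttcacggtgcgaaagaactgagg
Casp1: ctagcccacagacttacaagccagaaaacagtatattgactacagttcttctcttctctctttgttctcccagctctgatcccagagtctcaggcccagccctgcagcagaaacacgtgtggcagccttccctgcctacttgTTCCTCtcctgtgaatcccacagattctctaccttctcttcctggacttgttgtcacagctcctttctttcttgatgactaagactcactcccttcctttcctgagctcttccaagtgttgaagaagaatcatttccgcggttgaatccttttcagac
Positions below count the start as 0. The NF-kB consensus, searched on both strands, was found at -186 to -177 in this Nlrp3 window and not in that of the downstream start. In Casp4 it was found in 2 separate places, at -93 to -83, where 2 matches overlap, and at -39 to -30. Of 32544 distinct mouse promoter windows of this length, 8.49% held a match and 0.522% held matches in at least 2 places that do not overlap. The Casp1 window held none, and its capitals are a match to GAGGAA, the core bound by the myeloid factor PU.1, which 28.1% of all windows hold. The window of the downstream Nlrp3 start, not shown, held 3 matches to GAGGAA. An Nlrp1b window and the Pycard window held 1 each. Windows were found for 9 of the 10 genes. None of these held, on either strand, GAAA followed after 2 bases by GAAA, GGAA followed after 2 bases by GAAA, or TTCNNNGAA, letters of interferon-responsive elements that 3.45%, 2.73% and 8.33% of all windows hold. These matches describe the letters and no binding was measured.

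**Figure D3:**
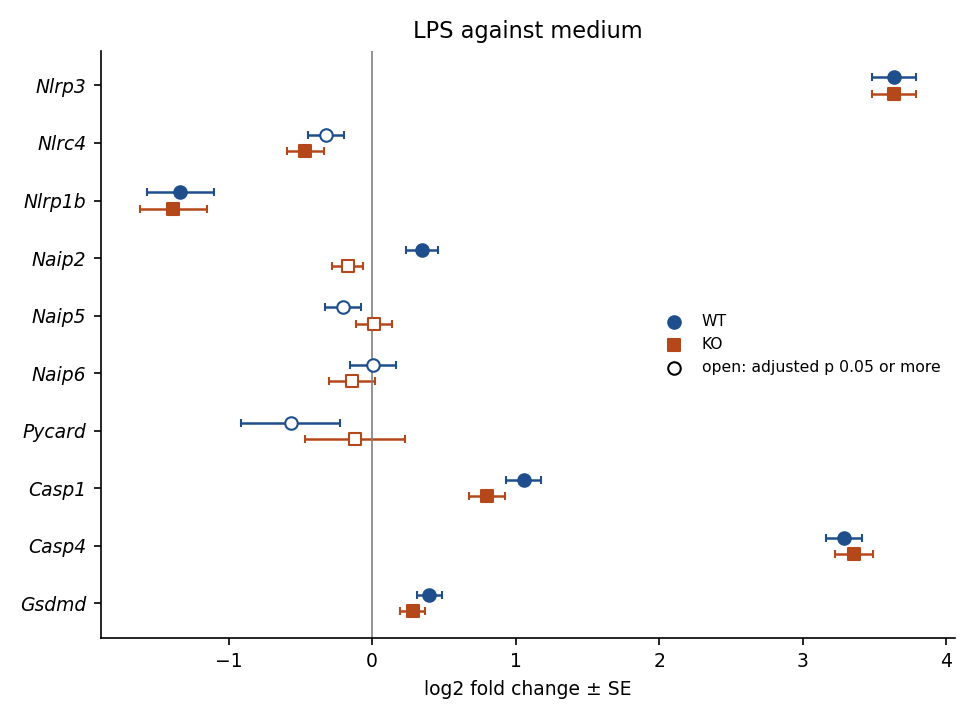
Log2 fold change of LPS against medium for the 10 genes in WT (circles) and KO (squares), with bars of 1 SE. Filled symbols passed an adjusted p of 0.05. Nlrp3 and Casp4 lie above 3 in both lines and Nlrp1b lies below -1 in both.

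Nlrp1b and Nlrc4 went the other way. Nlrp1b (ENSMUSG00000070390), the protease-sensing receptor, was at 3.01, 3.33 and 2.38 CPM in WT medium and at 1.42, 1.05 and 0.981 CPM in WT under LPS. In KO it was at 3.85, 2.45 and 3.24 CPM in medium and at 1.35, 1.18 and 1.13 CPM under LPS. The treatments did not overlap in either line, on counts of 42 to 198 per library. Its log2 fold change was -1.34 ± 0.23 in WT (edgeR adjusted p = 0.00124) and -1.38 ± 0.23 in KO (adjusted p = 0.00097, and 0.2 with the processed pseudogene share in the model).

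Nlrc4 (ENSMUSG00000039193), the partner of the NAIP proteins, was at 14.3, 13.6 and 15.3 CPM in WT medium and at 11.8, 11.8 and 11.1 CPM in WT under LPS. KO libraries held 3.38, 3.62 and 3.24 CPM in medium and 2.24, 2.90 and 2.26 CPM under LPS. Each LPS library lay below each medium library of its line. The LPS change was -0.32 ± 0.12 in WT (edgeR adjusted p = 0.0687) and -0.47 ± 0.13 in KO (adjusted p = 0.0111). The WT change passed with library size alone (-0.65, adjusted p = 0.00322), only the groups compared (0.0111), protein-coding genes only (0.0114), the stricter filter (0.0281) and without KO LPS replicate 2 (0.0366). The KO change missed the threshold with only the groups compared (0.0533) and with the processed pseudogene share in the model (0.114).

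The 3 Naip genes changed little with LPS. Naip2 (ENSMUSG00000078945) was at 40.2, 37.5 and 35.0 CPM in WT medium and at 46.8, 46.4 and 50.4 CPM in WT under LPS, with no overlap. Its change of 0.35 ± 0.11 passed the test (edgeR adjusted p = 0.0303), but did not pass without any 1 of the WT libraries (adjusted p = 0.0547 to 0.117) or without KO medium replicate 3 (0.0694). It also missed the threshold with library size alone (0.013, adjusted p = 0.926), no filter (0.152), protein-coding genes only (0.0599) and the processed pseudogene share in the model (0.0796). In KO, Naip2 was at 19.9, 14.4 and 17.9 CPM in medium and at 16.2, 15.4 and 14.8 CPM under LPS, and the change of -0.17 ± 0.11 missed the threshold (adjusted p = 0.213). Without KO medium replicate 2, the lowest of its group, that change was -0.34 and passed (adjusted p = 0.00777), as it did with library size alone (-0.43, adjusted p = 0.00446) and protein-coding genes only (-0.32, adjusted p = 0.019). Naip5 and Naip6 had LPS changes between -0.20 and 0.02 on the log2 scale in both lines, none of which passed. With library size alone, where the median of all genes also moved down, Naip5 in WT passed at -0.54 (edgeR adjusted p = 0.00383) and Naip6 in KO at -0.40 (0.0447), while Naip5 in KO (-0.24) and Naip6 in WT (-0.33) did not. Without KO medium replicate 2, Naip6 in KO passed at -0.38 (adjusted p = 0.0325) and Naip5 in WT at -0.26 (0.04), and with only the groups compared Naip5 in WT passed at -0.29 (0.0331). Pycard had 1.16, 1.45 and 1.32 CPM in WT medium against 0.553, 1.40 and 0.744 CPM under LPS, where replicate 2 lay within the medium range. Its WT change was -0.57 ± 0.35 (edgeR adjusted p = 0.225), and -1.0 without WT LPS replicate 2 (adjusted p = 0.0446).

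The KO line was then compared with WT. Nlrc4 was 4.21-fold lower in KO in medium and 4.67-fold lower under LPS, Naip5 3.30-fold and 2.84-fold, Naip6 2.38-fold and 2.63-fold, and Naip2 2.16-fold and 3.09-fold. Casp4 was 1.44-fold and 1.37-fold lower and Gsdmd 1.22-fold and 1.32-fold lower. Nlrp3, Nlrp1b, Casp1 and Pycard did not pass the test in either comparison. In both comparisons, 6 of the 10 genes were called lower, against 12.3% of all genes in medium and 12.7% under LPS, and 0 were called higher by edgeR or DESeq2, against 6.88% and 7.87% by edgeR. The median log2 fold change of the 10 genes was -0.43 in both comparisons, beside 0.04 and 0.07 over all genes. Without WT medium replicate 2, a library with 13% of its counts in processed pseudogenes, 6110 of 26994 genes were called higher and 5155 lower in medium (1818 and 3256 of 26420 with it), and again 6 of the 10 genes, all lower. The Naip genes are a sequence family, so their counts are not independent of one another. In bulk libraries fewer cells with a transcript and less transcript per cell cannot be told apart.

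Nlrc4 showed the largest line difference of the 10 genes. WT means were 14.4 ± 0.83 CPM in medium and 11.5 ± 0.42 CPM under LPS, and KO means 3.42 ± 0.19 and 2.47 ± 0.38 CPM (SD, n = 3). The highest KO library of either treatment, at 3.62 CPM, lay far below the lowest WT library, at 11.1 CPM. The log2 difference was -2.08 ± 0.13 in medium (edgeR adjusted p = 1.12e-06) and -2.22 ± 0.13 under LPS (adjusted p = 5.31e-07). Of its 31-base words, 3.35% also occurred in transcripts of another gene.

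Naip5 (ENSMUSG00000071203), a flagellin receptor, was at 30.1, 32.3 and 29.2 CPM in WT medium and at 10.2, 7.33 and 10.2 CPM in KO medium. Under LPS it was at 25.6, 26.7 and 27.4 CPM in WT and at 9.80, 8.38 and 9.87 CPM in KO. The lines did not overlap at either treatment. The log2 difference was -1.72 ± 0.13 in medium (edgeR adjusted p = 4.02e-06) and -1.51 ± 0.13 under LPS (adjusted p = 7.26e-06).

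Naip6 (ENSMUSG00000078942), its close relative, had 38.8, 37.6 and 39.1 CPM in WT medium and 18.1, 11.8 and 18.7 CPM in KO medium. WT LPS libraries had 36.3, 40.3 and 39.3 CPM and KO LPS libraries 15.8, 11.9 and 16.3 CPM. KO replicate 2 was the lowest of its group at both treatments, and all KO libraries lay below all WT libraries. The log2 difference was -1.25 ± 0.16 in medium (edgeR adjusted p = 0.000275) and -1.40 ± 0.16 under LPS (adjusted p = 9.17e-05). Naip2 differed by -1.11 ± 0.11 in medium (adjusted p = 3.76e-05) and by -1.63 ± 0.11 under LPS (adjusted p = 1.58e-06), again with no overlap. These calls, and those of Nlrc4, held under every alternative run.

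The counts of the Naip genes are uncertain, because parts of their transcripts are identical. Of the 31-base words of Naip5, 53.1% occurred in another gene (36.7% in Naip6 and 22.9% in Naip1), against 35.0% for Naip6 and 32.8% for Naip2 (21.1% in Naip1). How reads that map to several places were treated is not given in the sources used here. Naip1, the needle-protein receptor of this family and not one of the 10 genes, differed most between the lines. It was at 93.7, 89.2 and 94.8 CPM in WT medium and at 4.24, 3.95 and 5.31 CPM in KO medium. Under LPS it was at 58.5, 62.9 and 77.7 CPM in WT and at 1.59, 1.45 and 1.70 CPM in KO. Its log2 difference was -4.36 ± 0.14 in medium (edgeR adjusted p = 7.54e-09) and -5.40 ± 0.15 under LPS (adjusted p = 2.28e-09). Whether reads from Naip1 entered the counts of Naip2, Naip5 and Naip6 was not tested. The summed microglia and macrophage markers were also lower in KO. They stood at 758 to 1090 CPM in medium and 1044 to 1452 CPM under LPS, against 1132 to 1327 and 1488 to 1704 CPM in WT. The genes of that list did not move alike. In medium, WT and KO means were 240 and 148 CPM for Csf1r, 411 and 350 for Cd68 and 120 and 67.6 for Spi1. Ptprc (187 and 188) and Trem2 (77.0 and 75.7) were nearly equal, and Tmem119 was higher in KO (3.86 and 5.97). The part of these markers in the differences between the lines was not tested.

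The Naip2 and Naip5 promoters are shown because the likeness of these genes continues upstream of the transcript. Both lie on the minus strand of chromosome 13 of GRCm38.p6 in RefSeq, Naip2 at chr13:100202073-100202372 and Naip5 at chr13:100247287-100247586, as do those of Naip6 and Naip1. Capitals mark the best shared stretch without gaps.
Naip2: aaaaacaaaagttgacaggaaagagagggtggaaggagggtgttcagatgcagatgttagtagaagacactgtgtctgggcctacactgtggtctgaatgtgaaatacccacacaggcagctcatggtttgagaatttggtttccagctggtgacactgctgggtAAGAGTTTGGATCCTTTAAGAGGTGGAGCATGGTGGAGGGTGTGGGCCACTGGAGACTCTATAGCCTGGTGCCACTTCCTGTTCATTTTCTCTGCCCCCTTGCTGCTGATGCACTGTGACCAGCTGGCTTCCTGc
Naip5: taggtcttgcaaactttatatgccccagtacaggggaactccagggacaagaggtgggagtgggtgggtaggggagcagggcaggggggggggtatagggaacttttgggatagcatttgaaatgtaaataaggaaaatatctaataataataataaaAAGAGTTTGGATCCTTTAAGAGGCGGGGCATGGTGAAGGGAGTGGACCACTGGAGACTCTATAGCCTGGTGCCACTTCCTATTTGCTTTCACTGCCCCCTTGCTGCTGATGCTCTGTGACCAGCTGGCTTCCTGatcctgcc
The stretch runs from -85 to 48 in Naip2 and from -92 to 41 in Naip5 and holds 134 bases, of which 123 are identical (91.8%). The best stretch of the same kind between Naip6 and any of the others was at most 11 bases, and that between Naip1 and Naip2 was 22 bases. The window of Naip5 held a match to the NF-kB consensus and those of Naip2, Naip6 and Nlrc4 held none of the motifs searched.

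Casp4 was lower in KO on both sides of its LPS response. WT means were 4.15 ± 0.33 CPM in medium and 40.5 ± 2.32 CPM under LPS, and KO means 2.88 ± 0.46 and 29.6 ± 2.71 CPM, with no overlap between the lines. The log2 difference was -0.52 ± 0.12 in medium (edgeR adjusted p = 0.0121) and -0.45 ± 0.12 under LPS (adjusted p = 0.0163). In medium the call was lost with only the groups compared in the fit (adjusted p = 0.11) and without KO medium replicate 1 (0.0519) or 2 (0.0507). Under LPS it was lost without KO LPS replicate 3 (0.0744) or WT LPS replicate 1 (0.0588) or 2 (0.0606).

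The WT means of Gsdmd were 54.6 ± 2.47 CPM in medium and 72.1 ± 0.76 CPM under LPS, and its KO means 44.9 ± 3.41 and 54.6 ± 5.78 CPM. KO cells under LPS thus had the Gsdmd level of WT cells in medium. The lines did not overlap at either treatment. The log2 difference was -0.40 ± 0.09 under LPS (edgeR adjusted p = 0.00583), where it held under every alternative run, and -0.28 ± 0.09 in medium (adjusted p = 0.0398). The medium call was lost with the processed pseudogene share in the model (adjusted p = 0.186), no filter (0.0561) and only the groups compared (0.0595). It was also lost, at adjusted p of 0.053 to 0.0855, without KO LPS replicate 3, KO medium replicate 1 or 2, WT LPS replicate 1, 2 or 3, or WT medium replicate 1 or 3.

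**Figure D4:**
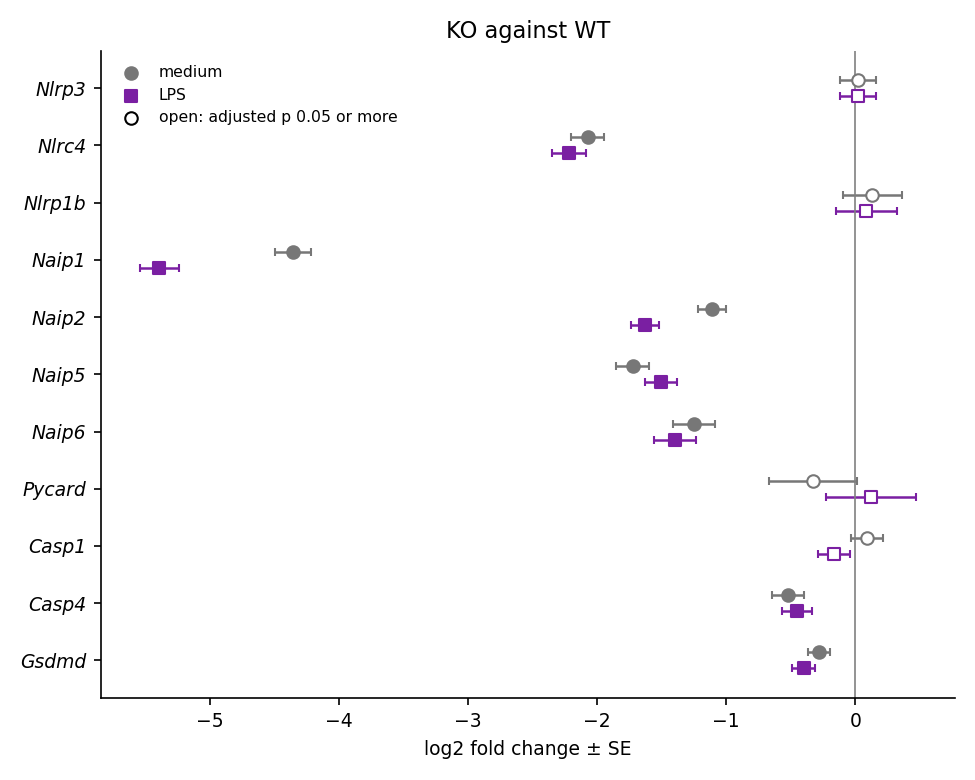
Log2 fold change of KO against WT for the 10 genes and Naip1, in medium (circles) and under LPS (squares), with bars of 1 SE. Filled symbols passed an adjusted p of 0.05. Nlrc4 and the Naip genes lie below -1 at both treatments, Casp4 and Gsdmd between -0.52 and -0.28, and Nlrp3 and Casp1 within 0.17 of 0.

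The other 4 genes showed no call between the lines. Nlrp3 differed by 0.02 ± 0.14 on the log2 scale in medium (edgeR adjusted p = 0.932) and by 0.02 ± 0.14 under LPS (adjusted p = 0.953), with a sign that changed in medium under RLE scaling. Casp1 differed by 0.09 ± 0.12 and -0.16 ± 0.12, and Nlrp1b by 0.13 ± 0.23 and 0.08 ± 0.24. Pycard, with the fewest counts, differed by -0.33 ± 0.34 in medium and 0.12 ± 0.35 under LPS. Both differences were smaller than their SE, and differences of this size could not be resolved with these libraries.

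Whether LPS acted to a different extent in the 2 lines was tested with the interaction, the LPS effect in KO minus that in WT. With edgeR 0 of the 10 genes passed, against 1.6% of all genes (0.693% positive and 0.908% negative), 1 had an unadjusted p under 0.05, and DESeq2 also called 0. Without WT medium replicate 2 the number of all genes that passed rose from 183 in the positive and 240 in the negative direction to 1606 and 2391, and 0 of the 10 genes passed. The gene with the low unadjusted p was Naip2 (-0.52 ± 0.15, edgeR adjusted p = 0.153), which was higher in all WT LPS libraries than in WT medium and overlapped between treatments in KO. Its adjusted p was 0.0172 without KO medium replicate 2 and 0.0403 with protein-coding genes alone. Nlrp3 had an interaction of 0.00 ± 0.20, Casp4 of 0.07 ± 0.17, Gsdmd of -0.12 ± 0.12, Nlrc4 of -0.15 ± 0.18 and Casp1 of -0.26 ± 0.17. The comparisons share their groups, so the LPS effects and the line differences are not independent of each other.

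Profiles over the 12 libraries were set side by side as log2 CPM centred on each gene's mean, with the root mean square difference as the measure of likeness. Among the 45 pairs of the 10 genes, the closest were Naip5 and Naip6 (0.18), Naip2 and Naip6 (0.19), Naip2 and Naip5 (0.25), Nlrp3 and Casp4 (0.34) and Casp1 and Gsdmd (0.36). The Naip pairs share sequence, and all pairs share libraries and their depth. The measure is also small where both genes vary little. The SD of log2 CPM over the 12 libraries was 0.51 for Casp1 and 0.27 for Gsdmd. It was 1.91 for Nlrp3 and 1.75 for Casp4. The closeness of Casp1 and Gsdmd thus does not show a shared pattern. Among 9755 other protein-coding genes, the nearest to Nlrp3 were Pde4b (0.22), which encodes a cAMP phosphodiesterase, Tnfrsf1b (0.25), a TNF receptor, and Lipg (0.26), an endothelial lipase. Pdgfb (0.20), a growth factor chain, was nearest to Casp4. Clint1 (0.098) and Stat3, the transcription factor (0.10), were nearest to Casp1, and Abraxas2 (0.063) and Nras (0.063) to Gsdmd. For Nlrc4 the nearest was Acss2 (0.17), an acetyl-CoA synthetase, whose medium libraries averaged 15.4 ± 0.38 CPM (WT) and 4.03 ± 0.37 CPM (KO). Pycard was below the minimum level for this comparison. These values describe the profiles and carry no test.

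Other genes of the route were taken from 8 lists with 65 entries, 1 of which had no matching symbol. Their counts of calls are to be read beside the shares of all genes. LPS raised 16.3% and lowered 16.3% of all genes in WT, and raised 25.3% and lowered 26.8% in KO. KO was lower for 12.3% of all genes in medium and 12.7% under LPS, and higher for 6.88% and 7.87%. Among 6 measured sensors outside the 10 genes, LPS raised 1 and lowered 2 in WT, raised 1 and lowered 3 in KO, and KO was lower for 3 in medium and for 3 under LPS, with 1 higher. Aim2, the cytosolic DNA sensor, was at 38.4 to 41.3 CPM in all WT libraries and fell with LPS in KO (-0.35 ± 0.08, edgeR adjusted p = 0.006, and 0.162 with the processed pseudogene share in the model). Mefv, which encodes pyrin, was the sensor that was higher in KO under LPS (1.69 ± 0.28, adjusted p = 0.00107), at 0.588 to 0.891 CPM against 0.190 to 0.299 CPM in WT. Nlrp10 was lower in KO at both treatments (-1.41 ± 0.21 and -1.77 ± 0.22) and lower with LPS in both lines. Of the 5 signalling NLRs outside inflammasomes, Nod1 was lower in KO by -1.58 ± 0.27 in medium and -1.32 ± 0.26 under LPS. Nod2, the muramyl dipeptide receptor, rose with LPS by 3.03 ± 0.11 in WT and 2.40 ± 0.10 in KO.

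Among 13 measured genes of NLRP3 activation and its control, LPS raised 6 and lowered 2 in WT and raised 5 and lowered 3 in KO. KO was lower for 5 in medium and for 7 under LPS, with 2 higher there. Of all genes, 32.6% were called with LPS in WT and 52% in KO, so that the 8 of 13 called in KO stood near that share. Of all genes, 12.3% were lower in KO in medium and 12.7% under LPS. P2rx7, the ATP-gated channel that triggers potassium efflux, fell with LPS in both lines (-0.96 ± 0.10 and -1.30 ± 0.11) and was lower in KO under LPS (-0.55 ± 0.10, edgeR adjusted p = 0.00277). Clic4, a chloride channel protein, rose in both lines by 2.39 ± 0.20 and 2.38 ± 0.20. Pstpip1, which binds pyrin, was lower in KO by -0.62 ± 0.11 in medium and -1.15 ± 0.11 under LPS. Nek7, the kinase that NLRP3 needs for assembly, passed in KO under LPS against WT (0.57 ± 0.17, adjusted p = 0.0393). The Nek7 groups overlapped, since KO LPS libraries stood at 130.1, 82.3 and 135 CPM and WT LPS libraries at 78.8, 71.9 and 83.5 CPM. Its call was lost without KO LPS replicate 1 (0.146) or 3 (0.158) or any 1 of the WT LPS libraries (0.0761 to 0.135), and with no filter (0.0806).

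Il1b and Il18, which encode the cytokines that caspase-1 matures, rose with LPS in both lines. Of 5 measured cytokines and antagonists, LPS raised 4 in both lines, against 16.3% of all genes in WT and 25.3% in KO. Of the same 5, Il1a, Il1b and Il1rn were lower in KO at both treatments, against 12.3% of all genes in medium and 12.7% under LPS. Il1b was at 2.44, 2.53 and 1.74 CPM in WT medium and 0.583, 0.376 and 0.426 CPM in KO medium, and reached 396, 355 and 245 CPM in WT and 167, 111 and 144 CPM in KO under LPS. It was lower in KO by -2.25 ± 0.29 in medium (edgeR adjusted p = 0.000259) and -1.24 ± 0.20 under LPS (adjusted p = 0.00117), with no overlap between the lines. Il1a was lower in KO by -6.21 ± 0.29 and -5.02 ± 0.22. In medium its KO libraries held 5 to 10 counts, against 513 to 671 in WT. Il18 rose by 2.51 ± 0.20 in WT and 2.01 ± 0.19 in KO and did not differ past the threshold between the lines, at 9.17, 8.50 and 7.68 CPM in WT and 9.15, 6.88 and 8.62 CPM in KO under LPS.

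The guanylate-binding proteins, which act on bacterial vacuoles and expose LPS to caspase-11, rose with LPS in both lines and reached lower levels in KO. Their list joins the genes of 4 such proteins with those of the factors Irf1, Irf2 and Irf8. Of 7 measured genes of this list, LPS raised 7 in WT and 6 in KO, and 5 were lower in KO under LPS. The shares of all genes were 16.3%, 25.3% and 12.7%. Gbp2 rose by 8.69 ± 0.17 in WT and 7.41 ± 0.18 in KO, and Gbp5 by 7.0 ± 0.33 and 3.77 ± 0.30. These rises start from few counts. Medium libraries held 13 to 32 counts of Gbp2 in WT and 7 to 12 in KO, and 13 to 56 and 20 to 29 of Gbp5. Gbp7 was lower in KO under LPS by -4.16 ± 0.19 (edgeR adjusted p = 8.77e-08). In the interaction 4 of the 7 passed in the negative direction, against 0.908% of all genes. Irf1 and Irf8, interferon regulatory factors, rose with LPS in both lines and did not differ past the threshold between them (Irf1 -0.36 ± 0.32 and Irf8 0.46 ± 0.21 under LPS). The rise of Irf8 in WT (0.62 ± 0.21, edgeR adjusted p = 0.0443) lost its call without any 1 of the WT libraries, KO LPS replicate 1 or KO medium replicate 1 or 3 (0.0538 to 0.164). It was lost as well with library size alone (0.28, adjusted p = 0.242), no filter (0.145), protein-coding genes only (0.0542) and the processed pseudogene share in the model (0.161). The Irf1 values in KO under LPS were 151, 49.8 and 141 CPM, with replicate 2 far below the others.

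Of 4 measured genes for other gasdermins and membrane rupture, KO was lower for 1 and higher for 1 in medium, and lower for 1 under LPS. Of all genes, 12.3% were lower and 6.88% higher in KO in medium, and 12.7% were lower under LPS. Ninj1, which ruptures the plasma membrane after pore formation, was at 144, 119.9 and 124 CPM in WT medium and 76.9, 69.4 and 68.4 CPM in KO medium. Under LPS it was at 287, 224 and 230.3 CPM in WT and 137, 87.1 and 120.0 CPM in KO. It rose with LPS in both lines and was lower in KO by -0.86 ± 0.15 in medium (edgeR adjusted p = 0.00251) and -1.11 ± 0.16 under LPS (adjusted p = 0.000338). Gsdme, the gasdermin that caspase-3 cleaves, was the gene higher in KO in medium (0.29 ± 0.07, edgeR adjusted p = 0.0112). Its call was lost without KO medium replicate 1 (0.0542) or 3 (0.0669) or WT medium replicate 3 (0.0649). It was also lost with no filter (0.0553), only the groups compared (0.0793) and the processed pseudogene share in the model (0.146).

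Among 8 measured caspases and necroptosis genes, LPS raised 6 in WT and 3 in KO, and 6 were lower in KO under LPS. Casp8, which links the death receptor and inflammasome routes, rose in WT (0.87 ± 0.08) and not past the threshold in KO (0.05 ± 0.08), and Mlkl, the pore protein of necroptosis, rose by 1.47 ± 0.10 and 0.51 ± 0.10. Ripk1 was lower in KO at both treatments (-0.80 ± 0.08 and -1.08 ± 0.08). Of 8 ESCRT genes, whose products shed damaged membrane, LPS raised 5 in WT, and raised 1 and lowered 1 in KO. The number called in WT fell to as few as 1 with a library left out. In the interaction 0 of the 8 passed, against 1.6% of all genes. KO was lower for 2 and higher for 1 in medium, and lower for 3 under LPS. Chmp4b was lower in KO by -0.71 ± 0.11 and -0.97 ± 0.11. Of all genes, LPS raised 16.3% in WT, and raised 25.3% and lowered 26.8% in KO. In KO against WT, 12.3% of all genes were lower and 6.88% higher in medium, and 12.7% were lower under LPS. The 3 of 8 caspase and necroptosis genes raised in KO stood near 25.3%, and the 1 of 8 ESCRT genes below it.

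**Figure D5:**
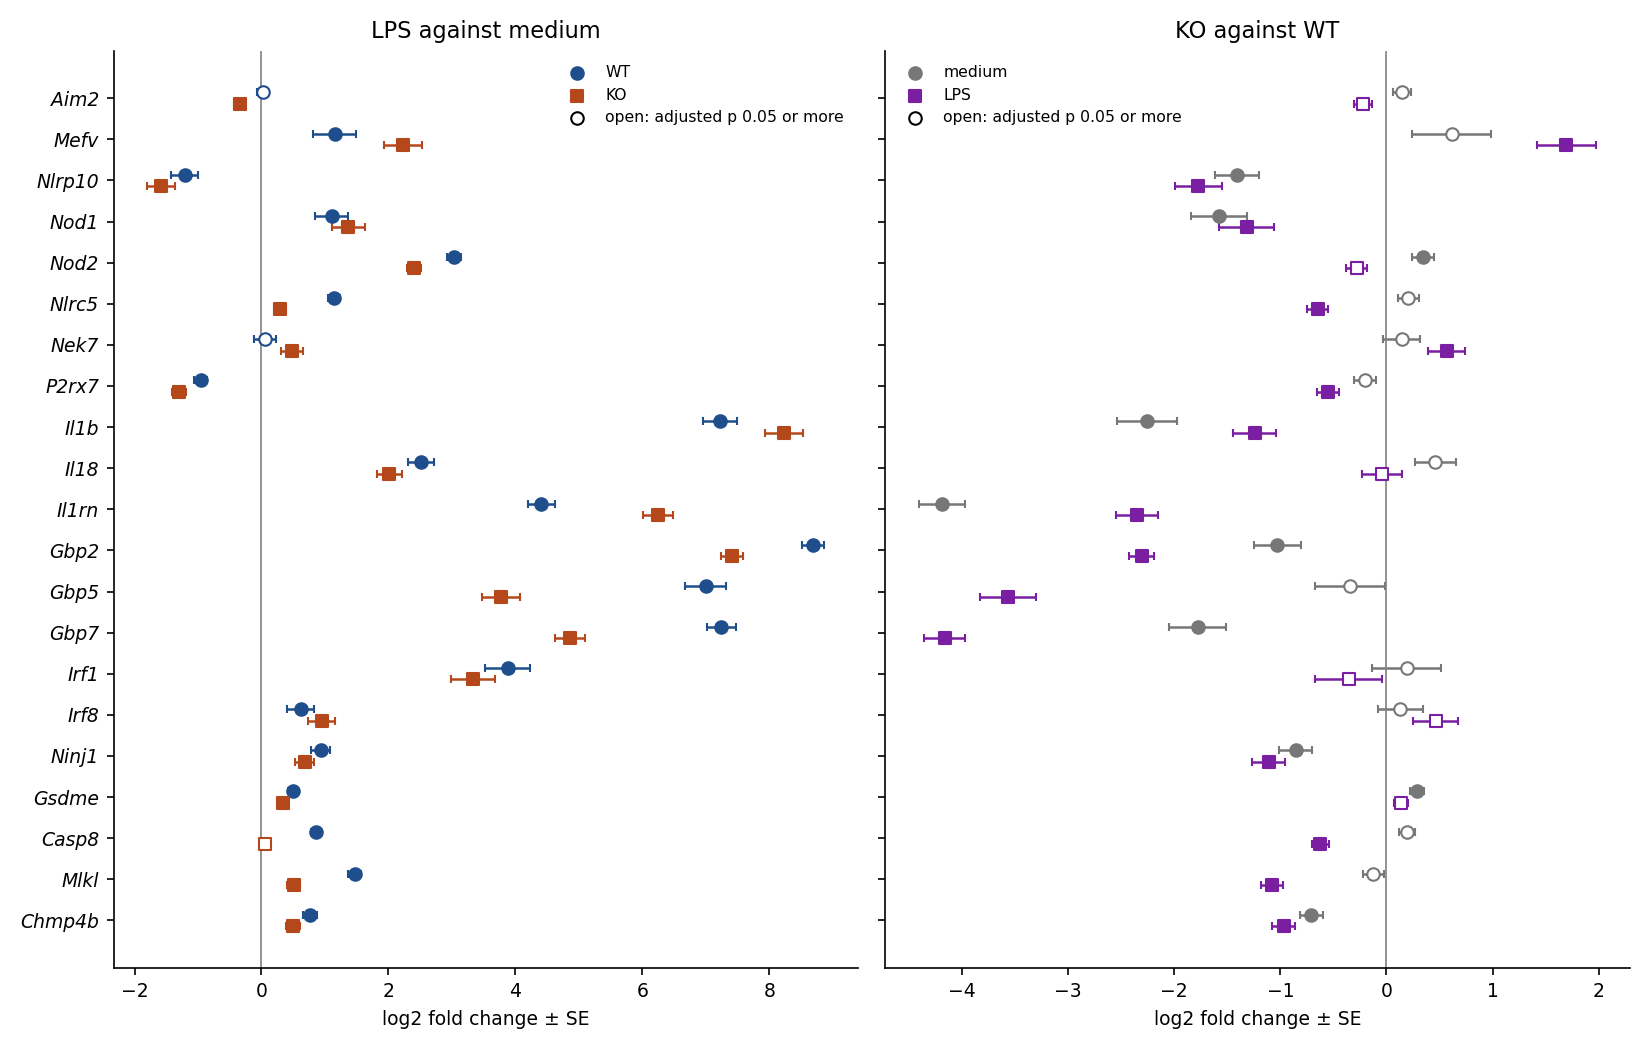
Log2 fold changes of 21 other genes of the route, LPS against medium on the left (WT circles, KO squares) and KO against WT on the right (medium circles, LPS squares), with bars of 1 SE. Filled symbols passed an adjusted p of 0.05. Gbp2, Gbp5 and Gbp7 lie further left under LPS than in medium on the right, and Il1b and Il1rn the other way.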

How the data were processed

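RNA was measured in 12 libraries of WT and KO (H14) SIM-A9 cells in medium or under LPS, 3 per group, with stranded ribosome-depleted total RNA libraries, per the labels' protocols. The authors deposited raw read counts per Ensembl gene. FastQC 0.11.9, Trimmomatic 0.39, STAR 2.7.9a, featureCounts and DESeq2 1.32.0 were used on GRCm39, per the submitters' processing notes. Which annotation release and strand setting were used, and how multi-mapping reads were counted, is not given in the sources used here. Symbols, exon lengths and transcripts came from GENCODE M21 on GRCm38, and 52083 of 55416 identifiers matched a symbol.

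Tests on the deposited counts used edgeR 4.0.16 (R 4.3.3): filterByExpr by group (count minimum 10), TMM, and robust quasi-likelihood fits of 4 group means over all 12 libraries, with Benjamini-Hochberg adjustment over 26420 genes and a threshold of 0.05. The script was tested on simulated counts. Of the 97 or 98 2-fold changes put in per comparison, 26 to 34 were recovered. Of the 4-fold changes, 77 of 98 were recovered for LPS in WT and 52 of 92 in the interaction. Genes that did not pass may thus have changed. CPM used the TMM-scaled library, and CPM per kb the joined exons. Shared sequence was counted in words of 31 bases. Pairs of promoter windows were scanned for the best stretch without gaps (match 1, mismatch -2).

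The 10 genes, the 8 lists and the tests were chosen with earlier results of these data known. Named from each list were the 2 called genes with the largest change per comparison at a mean log2 CPM of at least 0, plus Aim2, Mefv, Nek7, Il1b, Il18, Irf8, Irf1 and Ninj1. Likeness was computed at a mean log2 CPM of at least 2. Gbp3, outside this rule, was named after its values were seen, as a gene called in the interaction. The alternatives were no filter, RLE scaling, scaling by library size alone, a stricter filter (50 counts in 3 libraries), DESeq2 1.42.0, a replicate block, a fit to only the groups compared, robust estimation off, protein-coding genes only, the pseudogene share as a covariate, and each library left out.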

Additional observations from a re-analysis of the deposited data

Results flagged for a closer look

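Among the genes of the route, 9 outside the 10 main genes had an LPS effect that differed between the lines by the interaction test (edgeR adjusted p under 0.05), and 0 of the 10 main genes did. The 9 came from 8 lists with 65 entries, not all of which were measured. Of all genes, 1.6% passed, 0.693% in the positive and 0.908% in the negative direction. The values are log2 differences, the LPS effect in KO minus that in WT, with their SE. Negative values were those of Naip1 (-1.04 ± 0.18, adjusted p = 0.0179), Nlrc5 (-0.86 ± 0.14, adjusted p = 0.00988), Casp8 (-0.81 ± 0.11, adjusted p = 0.00481) and Mlkl (-0.96 ± 0.14, adjusted p = 0.00832).

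The 4 guanylate-binding protein genes of the list formed the rest of the negative values. Gbp2 was at -1.28 ± 0.26 (edgeR adjusted p = 0.0368), Gbp3 at -1.86 ± 0.28 (adjusted p = 0.00832), Gbp5 at -3.22 ± 0.42 (adjusted p = 0.00428) and Gbp7 at -2.38 ± 0.35 (adjusted p = 0.00717). All 4 had low counts in medium, in KO 7 to 12 (Gbp2), 13 to 21 (Gbp3), 20 to 29 (Gbp5) and 8 to 16 (Gbp7) per library. Il1rn, which encodes the IL-1 receptor antagonist, was the 1 gene with a positive value (1.84 ± 0.27, adjusted p = 0.00719). In KO it started from 8.28 to 13.1 CPM in medium, against 178 to 194 CPM in WT.

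Single libraries decided some of these calls. Naip1 lost its call without KO LPS replicate 1 (adjusted p = 0.0504) or WT medium replicate 1 (0.06), and Nlrc5 without KO medium replicate 3 (0.0638) or WT medium replicate 1 (0.0626). Gbp2 lost its call in 8 of the 12 fits that leave out a library, at adjusted p of 0.0543 to 0.212 (all but those without KO LPS replicate 2, KO medium replicate 2 or WT medium replicate 2 or 3), with RLE scaling (0.0578) and with the processed pseudogene share in the model (0.0925). Gbp3, Gbp5, Gbp7, Il1rn, Casp8 and Mlkl passed in all alternatives run.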

How the results depend on the processing

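Calls of Nlrp3, Casp4 and Casp1 with LPS, and of Nlrc4, Naip2, Naip5 and Naip6 between the lines, kept direction and side of the threshold in all alternatives. With libraries left out in turn, the number of the 10 genes called was 5 to 7 for LPS in WT, 5 to 7 for LPS in KO, 4 to 6 for KO against WT in medium, 5 to 6 under LPS and 0 to 1 in the interaction. It was 1 in the interaction with protein-coding genes only and 3 for LPS in KO with the pseudogene share as a covariate, in which treatment and pseudogene share overlap. Whether this share reflects the cells or the libraries was not tested. Low counts limit Pycard and Nlrp1b.

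Signs reversed only for values that had not passed. In the interaction, Nlrp1b was 0.038 with library size alone and 0.17 with the covariate, and Nlrp3 was -0.027 with no filter and -0.054 with protein-coding genes only. For KO against WT in medium, Casp1 was -0.0029 and Nlrp1b -0.12 with the covariate, and Nlrp3 was -0.0036 with DESeq2, -0.0050 with only the groups compared, -0.039 with the covariate and -0.0037 with RLE scaling. Under LPS, Il18 was 0.030 with library size alone, and Nlrp3 was -0.021 with no filter and -0.011 with protein-coding genes only. For LPS in KO, Naip5 was -0.24 with library size alone, -0.11 with no filter, -0.14 with protein-coding genes only and -0.028 with the stricter filter. For LPS in WT, with library size alone, no filter, only the groups compared and protein-coding genes only, Aim2 was -0.32 (adjusted p = 0.0123), -0.073, -0.071 and -0.077, Naip6 -0.33, -0.086, -0.084 and -0.091, and Nek7 -0.27, -0.027, -0.028 and -0.034. With the covariate and the stricter filter, Aim2 was -0.027 and -0.035 and Naip6 -0.0089 and -0.049.

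Leaving out a library moved these across 0, from lowest to highest. For KO against WT in medium, Casp1 ranged from -0.00067 to 0.17, Irf8 -0.017 to 0.26, Nlrp1b -0.045 to 0.28 and Nlrp3 -0.088 to 0.15. Under LPS, Il18 ranged from -0.13 to 0.070, Nlrp1b -0.024 to 0.26, Nlrp3 -0.068 to 0.094 and Pycard -0.27 to 0.56. For LPS in KO, Naip5 ranged from -0.18 to 0.094 and Pycard -0.50 to 0.058, and in WT Aim2 -0.063 to 0.038, Naip6 -0.071 to 0.055 and Nek7 -0.066 to 0.12. In the interaction, Casp4 ranged from -0.0077 to 0.23, Nlrp1b -0.20 to 0.13 and Nlrp3 -0.14 to 0.10. The causes were not tested.

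The replicate numbers were not taken to pair the samples, since the correlations of deviations of same-numbered libraries ran from -0.37 to 0.39 and only 11 of 18 were over 0.1. The same number correlated best in 20 of 36 combinations, and all 3 same-numbered pairs of WT LPS and KO medium were over 0.1 (0.11, 0.16 and 0.23), so pairing in part remains possible. With the replicate block, calls over all genes, higher and lower, were 4849 and 3995 for LPS in WT, 7132 and 7485 in KO, 2417 and 3769 for KO against WT in medium, 2542 and 3872 under LPS and 311 and 350 in the interaction (183 and 240 without it), and the numbers of the 10 genes called were the same as without it.

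Counts of calls over all genes, higher and lower, of which at least 1 moved past 1.5 times, were these, beside those given in the report. KO against WT in medium (1818 and 3256) had 802 and 2552 with only the groups compared, 558 and 1784 with the covariate, and 1050 and 2857, 907 and 2537, 977 and 2658, and 1005 and 2477 without KO medium replicate 1 or 3 or WT medium replicate 1 or 3. KO against WT under LPS (2080 and 3351) had 1382 and 2735 without WT LPS replicate 1, and with library size alone the split moved to 2922 and 2936. LPS in WT (4303 and 4297) had 3260 and 2314 with the covariate and 3228 and 2094, 3943 and 2513, and 3407 and 2288 without WT LPS replicate 1, 2 or 3. LPS in KO (6679 and 7070 of 26420 genes tested) had 4083 and 4202 with protein-coding genes only, of 16183 tested. These numbers have unlike bases and do not show that the share called moved. The interaction (183 and 240) had 393 and 384 with DESeq2, 360 and 236 with library size alone and 74 and 125 with the covariate. On fewer genes tested, it had 274 and 396 with protein-coding genes only (of 16183) and 278 and 282 with the stricter filter (of 17741). With a library left out it moved past 1.5 times in 11 of 12 fits, from 69 and 117 without WT LPS replicate 1 to 1606 and 2391 without WT medium replicate 2, the exception being KO medium replicate 2.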
